A study of Mus musculus with 4 samples.

Results

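Oxytocin and vasopressin signalling was followed through 8 genes in mouse brain tissue taken after rearing in darkness or under standard light. They were the precursor genes Oxt and Avp, the receptor genes Oxtr, Avpr1a and Avpr1b, and the genes Cd38, Caprin2 and Lnpep, whose products act on release, on the vasopressin messenger and on breakdown of the peptides. The genes were chosen by name: a probe that was not a control counted where its RefSeq accession belonged to a listed symbol. All 8 genes had a probe, which gave 9 probes of 41174 on the array, 2 of them for Cd38. The tissue held thalamus and hypothalamus together and was sampled at 14 days of age. Dark-reared mice were born to dams that had been moved, shortly before delivery, into a cage wrapped in black plastic, and stayed in darkness with care under dim red light. Control mice lived in standard cages on a daily light cycle. There were 2 samples per group, DR1 and DR2 for dark rearing and Ctrl1 and Ctrl2 for controls (dark-reared 1 and 2 and control 1 and 2 in the plots), and each was hybridised to its own array. The labels call them biological replicates and give no strain, sex or number of animals per sample, so p-values measure the spread between these samples. The comparison asks whether expression in this tissue differs when visual input is missing from birth.

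Oxytocin and vasopressin are short peptides made by large neurosecretory neurons of the paraventricular and supraoptic nuclei of the hypothalamus. Vasopressin is also made in the suprachiasmatic nucleus, the circadian clock that receives light signals from the retina. Each peptide is cut from a precursor that also holds a neurophysin, is packed into dense-core vesicles, and is released into the blood in the posterior pituitary or within the brain. The receptors couple to G proteins. Oxtr binds oxytocin, Avpr1a is the vasopressin receptor found widely in brain, and Avpr1b is best known from pituitary corticotrophs and the CA2 field of the hippocampus.

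Oxt and Avp are neighbours on chromosome 2 and are read toward each other. A RefSeq promoter entry was found for 7 of the 8 members (GRCm38.p6). The 250 bases before the annotated start of Oxt (chr2:130575919-130576168, plus strand) and of Avp (chr2:130582589-130582838, minus strand) are shown because these 2 members varied together across the arrays. Capitals mark the matches to the 3 motifs searched on both strands: TGACC, a nuclear receptor half-site; CACGTG, an E-box of the kind that clock factors bind; and CATAAA, which resembles the core promoter box found shortly before many starts.
Oxt: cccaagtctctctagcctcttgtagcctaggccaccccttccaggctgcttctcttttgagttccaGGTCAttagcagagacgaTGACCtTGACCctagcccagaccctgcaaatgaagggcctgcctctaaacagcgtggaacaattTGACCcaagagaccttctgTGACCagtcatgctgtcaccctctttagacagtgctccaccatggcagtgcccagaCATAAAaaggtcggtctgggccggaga
Avp: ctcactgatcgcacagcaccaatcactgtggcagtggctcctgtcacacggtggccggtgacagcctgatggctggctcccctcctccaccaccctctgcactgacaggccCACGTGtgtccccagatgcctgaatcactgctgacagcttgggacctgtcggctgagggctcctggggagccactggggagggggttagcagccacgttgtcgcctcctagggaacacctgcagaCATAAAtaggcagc
The Oxt stretch held TGACC at 5 places, of which 1 was on the minus strand, where it reads GGTCA. At least as many were found in 0.0426% of the 32851 promoter entries, and any TGACC in 35.2% of them. The Avp stretch held no TGACC and 1 CACGTG, a motif present in 6.02% of entries. CATAAA occurred once in each, 27 bases before the Oxt start and 14 bases before the Avp start, against 10.8% of entries. The longest stretch that both genes share, CAGACATAAA, spans that element and occurred in 18 entries. These matches describe the sequence only, and binding was not measured.

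Values are given as relative log2 signals, the log2 of the processed signal over the 75th percentile of its array. The share of probes well above background was between 65.9% and 73.3% on the 4 arrays, and 0 spots were saturated. DR2 and Ctrl2 were on the same slide, Ctrl1 and DR1 on slides of their own. The sex-linked RNAs differed within groups: Xist was well above background in DR1 and Ctrl1, and Ddx3y in every sample but Ctrl1. The precision is limited by the number of arrays, and an exact two-sided permutation test of 2 samples against 2 cannot give a p below 0.333.

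Oxt, the oxytocin precursor gene (NM_011025), was bright on 3 arrays and dim in DR1. Its processed signal was 80.3 in DR1 and 4367 in DR2. It was 12250 in Ctrl1 and 3971 in Ctrl2. The relative log2 signals were -3.32 and 2.48 in DR1 and DR2 and 3.95 and 2.36 in Ctrl1 and Ctrl2. DR2 thus lay between the 2 controls, and the groups overlapped. In tissue RNA, fewer cells of a type and less RNA per cell cannot be told apart. The Oxt probe was well above background on all 4 arrays, with an error by the scanner software of 13.5% of the signal in DR1 and about 10% in each other sample. The mean was -0.42 ± 4.10 (SD, n = 2) after dark rearing, against 3.16 ± 1.12 (SD, n = 2) for controls. The difference of -3.58 had a standard error of 2.14 and a 95% interval from -9.55 to 2.40, and it did not pass in limma (unadjusted p = 0.171, adjusted p = 1.00). Without DR1 it was -0.68, without DR2 it was -6.48, and within the shared slide it was 0.12.

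Avp, the vasopressin precursor gene (NM_009732), had its lowest value on the same array. Its processed signal was 65.1 in DR1, 8983 in DR2, 11761 in Ctrl1 and 1735 in Ctrl2, well above background on all of them. The relative log2 signals were -3.62, 3.52, 3.89 and 1.17 in that order. Here Ctrl2 was below DR2, whereas for Oxt these samples were close, and the groups again overlapped. The mean was -0.05 ± 5.05 (SD, n = 2) after dark rearing, against 2.53 ± 1.93 (SD, n = 2) for controls. The difference of -2.58 (standard error 2.72, 95% interval from -10.2 to 5.01) did not pass in limma (unadjusted p = 0.397, adjusted p = 1.00). It was 0.99 without DR1, -6.15 without DR2 and 2.35 within the shared slide.

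**Figure D1:**
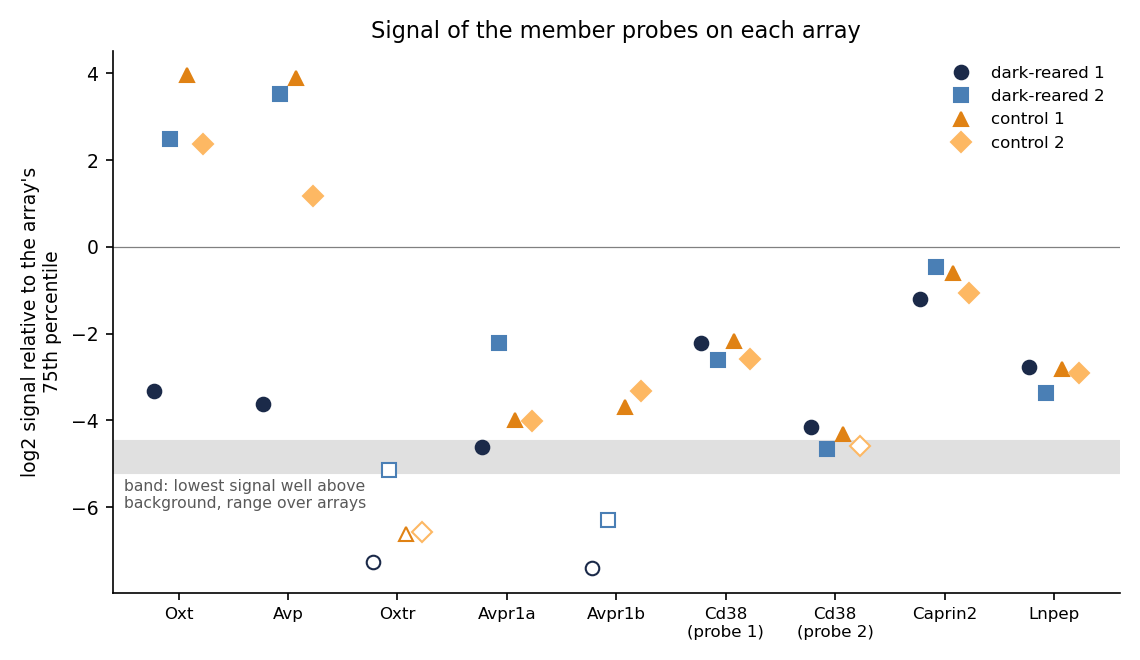
Relative log2 signal (log2 of the processed signal over the array's 75th percentile, vertical axis) of the 9 member probes, with each point 1 array and open points not well above background. DR1 lies at -3.32 for Oxt and -3.62 for Avp, far below the other 3 arrays, while both dark-reared points of Avpr1b are open and below both controls.

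Of the receptor genes, Avpr1a was measured on all 4 arrays, Avpr1b on the controls alone and Oxtr on none. Oxtr, the oxytocin receptor gene (NM_001081147), did not stand well above background anywhere. Its processed signals were 5.24 and 22.2 in DR1 and DR2 and 8.09 and 8.16 in Ctrl1 and Ctrl2, against 21.3 to 35.0 for the lowest signal well above background on an array. It was therefore not tested, and no fold is given. A transcript at this level was not detectable here, which does not show that it is absent.

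Avpr1a (NM_016847) was well above background on all 4 arrays and highest in DR2. Its relative log2 signals were -4.60 and -2.21 in DR1 and DR2 and -4.0004 and -4.02 in Ctrl1 and Ctrl2. The controls lay between the dark-reared samples. The difference of 0.61 (standard error 0.86, 95% interval from -1.80 to 3.01) did not pass in limma (unadjusted p = 0.522, adjusted p = 1.00). It was 1.81 within the shared slide, 1.80 without DR1 and -0.59 without DR2. It was -0.33 after normexp background correction and 0.29 when outlying local backgrounds were first replaced.

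Avpr1b (NM_011924) was the member whose groups did not overlap. Its processed signals were 4.73 and 10.02 in DR1 and DR2, where it was not well above background, and 61.8 and 77.7 in Ctrl1 and Ctrl2, where it was. The median spot signals before background removal were 64.5 and 60 in the dark-reared samples and 135 and 155 in the controls, over local backgrounds between 33 and 39. The relative log2 signals were -7.40 and -6.29 in DR1 and DR2 and -3.68 and -3.31 in Ctrl1 and Ctrl2. Both dark-reared values were below both controls. With dark-reared samples raised to the lowest signal well above background, Avpr1b was 3.08-fold lower in dark-reared samples, a bound set by that level. The level is not a strict limit of detection. In DR2 it was -5.07, and Agrp lay above it at -4.77 without being well above background. The measured means were -6.85 ± 0.79 (SD, n = 2) and -3.50 ± 0.26 (SD, n = 2), the first of which rests on values that were not measured above background, and the adjusted p in limma was 1.00. Avpr1b entered that fit through the controls alone, so no difference, standard error or interval is given for it on this scale. The bound applies to the processed signals and to that level only. With normexp correction the mean difference was -1.51, and -1.04 with outlying local backgrounds replaced, both smaller than the bound. That correction adds an offset of 50 to every signal, which shrinks ratios of signals this low by construction. That the groups do not overlap is a description, since the filter admitted Avpr1b for its control values. Among the 21423 genes tested, 19.0% had groups that did not overlap, 1.19% did so with at least a 2-fold difference, and 0.766% did so on the low side.

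The genes for release, messenger handling and breakdown had group means at most 0.20 apart. Cd38 encodes an ectoenzyme that makes cyclic ADP-ribose and is needed for oxytocin release. Its brighter probe (NM_007646) had relative log2 signals of -2.21 and -2.61 in DR1 and DR2 and -2.16 and -2.59 in Ctrl1 and Ctrl2. Within each group, replicate 1 was the higher, and the groups overlapped. The difference of -0.04 had a 95% interval from -0.74 to 0.67 in limma (adjusted p = 1.00). The dimmer Cd38 probe lay at -4.16, -4.67, -4.31 and -4.59 in DR1, DR2, Ctrl1 and Ctrl2, and was not well above background in Ctrl2. It gave a difference of 0.04, so both probes placed the groups within 0.04 of each other.

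Caprin2 encodes an RNA-binding protein that binds the vasopressin messenger and affects the length of its poly(A) tail. Its relative log2 signals (NM_181541) were -1.21 and -0.47 in DR1 and DR2 and -0.61 and -1.07 in Ctrl1 and Ctrl2. The order of the arrays, from DR1 at the bottom to DR2 at the top, left the controls in between. The difference of 0.0024 had a 95% interval from -0.94 to 0.95 in limma (adjusted p = 1.00). Within the shared slide it was 0.60, and between the other arrays it was -0.60.

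Lnpep encodes insulin-regulated aminopeptidase, also called oxytocinase, which cleaves both peptides. Its relative log2 signals (NM_172827) were -2.76 and -3.38 in DR1 and DR2 and -2.82 and -2.92 in Ctrl1 and Ctrl2. DR2 was the lowest and DR1 the highest. The difference of -0.20 had a 95% interval from -0.93 to 0.52 in limma (adjusted p = 1.00), and it was -0.46 within the shared slide.

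**Figure D2:**
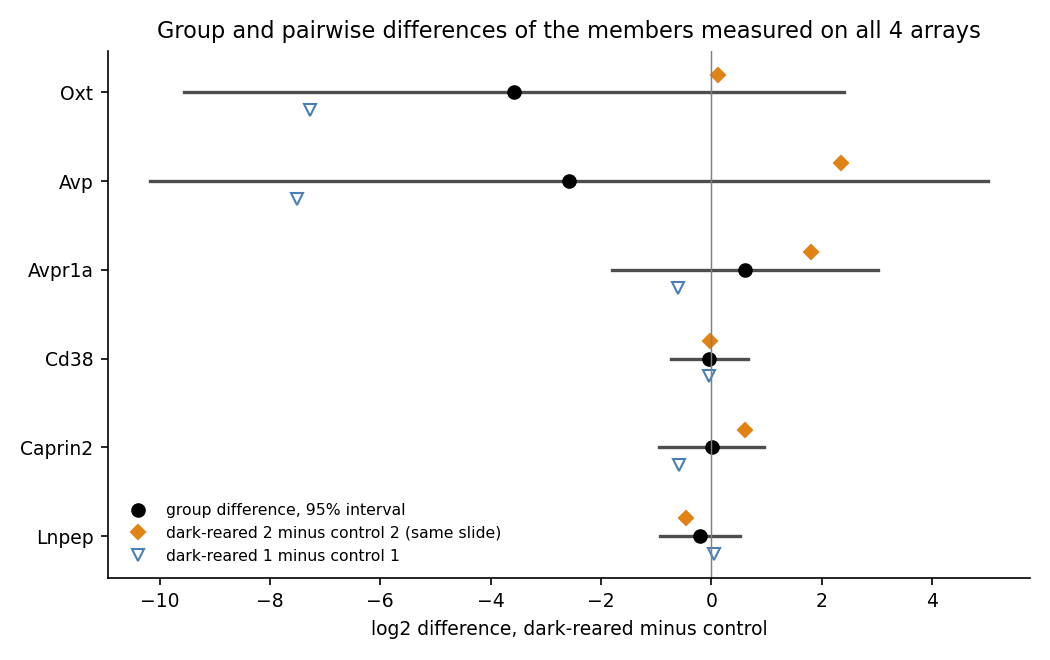
Log2 difference between dark-reared and control samples (horizontal axis) of the 6 members measured on all 4 arrays, with black points the group difference, bars its per-gene 95% interval from limma, and the other symbols the 2 same-numbered pairs of arrays. The Oxt and Avp intervals span more than 10 log2 units and their pairs fall on opposite sides of 0, whereas the intervals of Cd38, Caprin2 and Lnpep lie between -0.94 and 0.95.

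Over the whole table, limma called 0 of 21423 genes (0%) at the adjusted threshold of 0.05, with 0.297 as the smallest adjusted p. Before adjustment, 268 genes (1.25%) had p under 0.05. Of the 7 members tested, 0 passed. For the 6 that were well above background on all 4 arrays, 0 had an unadjusted p under 0.05 and 0 had groups that did not overlap. Over all genes tested 19.0% did not overlap, so 0 of 6 says little on the members. Their dark-reared means were lower for 4 and higher for 2, with a median difference of -0.12, beside 51.7% lower and a median of -0.01 over all genes tested. Within the shared slide 4 of the 6 were higher and 2 lower in the dark-reared sample.

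Replicates of Oxt and Avp stood farther apart than those of nearly all other genes. The Avp values of the dark-reared arrays differed by 7.14 (log2), the largest such gap among the 21423 genes, and the Oxt values by 5.80, which Avp and the transcription factor gene Lhx5 exceeded, the latter not well above background in DR1. As processed signals these gaps are 141-fold and 55.6-fold after scaling. The median gap over all genes was 0.26 between dark-reared arrays and 0.21 between controls, and 95% of genes were below 1.39 and 0.99. Between the controls, Avp differed by 2.72, exceeded by 49 genes, and Oxt by 1.59, exceeded by 293 genes. The Avpr1a gap was 2.40 between dark-reared arrays and 0.02 between controls. Cd38, Caprin2 and Lnpep had gaps of 0.41, 0.74 and 0.61 between dark-reared arrays, each exceeded by 15.7% to 33.1% of genes.

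**Figure D3:**
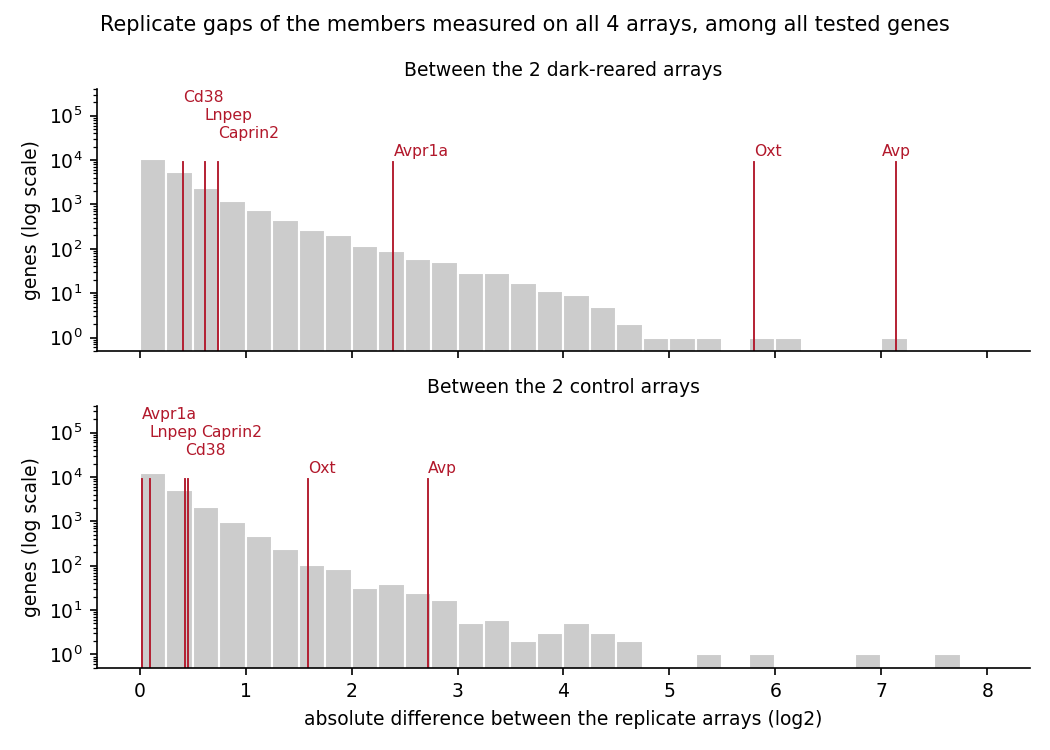
Number of genes (vertical axis, log scale) by the absolute log2 difference between the 2 arrays of a group (horizontal axis), with red lines at the 6 members measured on all 4 arrays. Avp at 7.14 and Oxt at 5.80 are at the far end between dark-reared arrays, and at 2.72 and 1.59 between controls, while Cd38, Caprin2 and Lnpep are below 0.75 in both panels.

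The array on which Oxt and Avp were lowest also had other levels of genes that mark brain regions. As deviations from the mean of the 4 arrays, Oxt was at -4.69, 1.11, 2.58 and 0.99 and Avp at -4.86, 2.28, 2.65 and -0.07 in DR1, DR2, Ctrl1 and Ctrl2. In the same order, the mean deviation of 17 tested hypothalamus markers was -0.92, 0.16, 0.77 and -0.01, and that of 19 thalamus markers was -0.93, 0.46, 0.79 and -0.31. That of 10 striatum markers ran the other way, at 0.86, -0.80, -0.68 and 0.61. Cortex and hippocampus markers (13 tested) were at 0.40, 0.13, -0.12 and -0.41. As group differences, 8 striatum markers were higher and 2 lower (median 0.04) and 0 passed. Their median was -0.90 without DR1, -0.58 without Ctrl1, 0.91 without DR2 and 0.71 without Ctrl2. Within the shared slide all 10 were lower in DR2 than in Ctrl2 (median -1.52). The cortex and hippocampus list had 11 higher and 2 lower (median 0.50) and 0 past the test. It had 8 higher and 5 lower with normexp (median 0.30), without DR1 (0.40) and without Ctrl2 (0.81), and the median was 0.76 without DR2. Within the shared slide it had 10 higher and 3 lower (median 0.57). The pair on the shared slide thus also differed in region markers. The part of tissue content in the Oxt and Avp values was not tested.

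**Figure D4:**
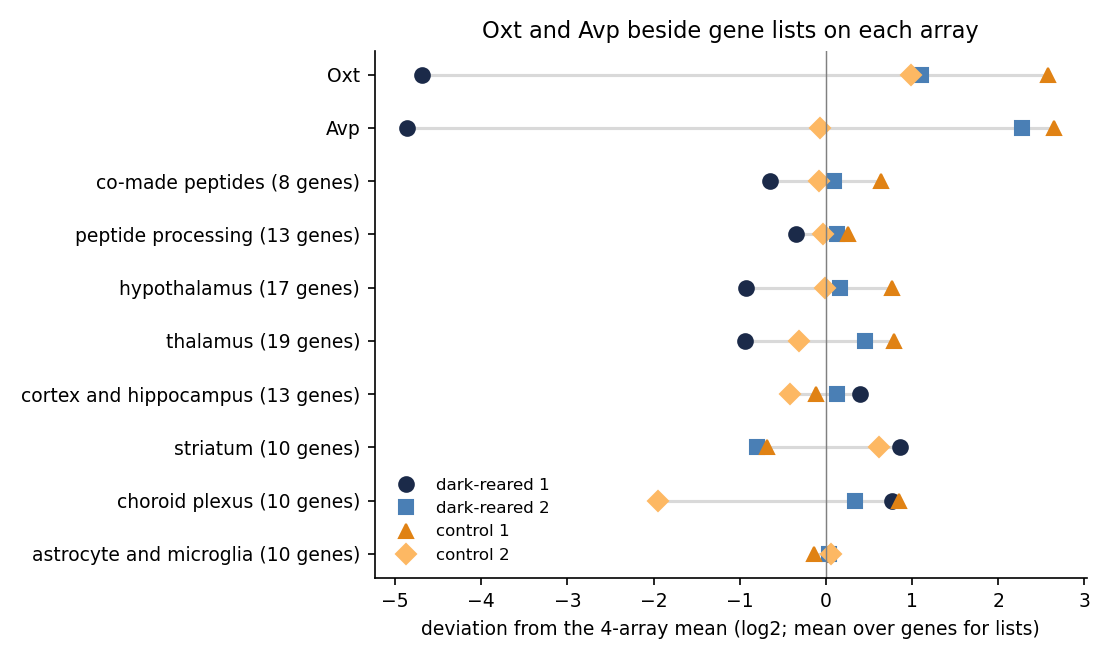
Deviation of each array from the 4-array mean (log2, horizontal axis) for Oxt and Avp and, as the mean over tested genes, for 8 gene lists. DR1 is lowest for Oxt, Avp, hypothalamus and thalamus and highest for striatum, where DR2 and Ctrl1 lie below 0.

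The hypothalamus itself was checked by its markers, of which 25 had a probe and 17 were tested. The markers left out on detection included Otp and Sim1, transcription factors needed to form oxytocin and vasopressin neurons, which were not well above background on any array. Hmx2, Hmx3, Fezf1 and Pmch were well above background in DR2 and Ctrl1 alone. Their levels on these arrays were not always alike: Pmch lay at -4.48 in DR2 and 2.67 in Ctrl1, Hmx3 at -2.02 and -1.16. Of the 17 tested, 16 were lower and 1 higher in dark-reared means and 0 passed, with a median difference of -0.80 that was 0.23 within the shared slide, -0.36 without DR1 (10 lower, 7 higher) and -0.40 without Ctrl1. It was -0.49 by normexp with outlying local backgrounds replaced. Their summed signal, on the log2 scale, was 5.13 and 5.41 in dark-reared samples and 5.73 and 5.57 in controls. Bright genes weigh most in that sum, above all Sst, at 4.39, 4.26, 4.37 and 4.74 in DR1, DR2, Ctrl1 and Ctrl2. The mean deviation weighs each marker alike and was -0.92 in DR1. Calcr, the calcitonin receptor gene, was at -3.86 in DR1 against 0.45, 0.74 and -0.61 in DR2, Ctrl1 and Ctrl2. Hcrt, the orexin precursor gene, was instead high in Ctrl1 alone, at 2.13 against -3.18, -2.15 and -3.66 in DR1, DR2 and Ctrl2. Npy and Sst, peptide genes made in many brain regions, differed by -0.10 and -0.23 between the groups. Among the 19 thalamus markers 16 were lower and 0 passed (median -0.51, but 0.79 within the shared slide, 0.12 without DR1, 0.04 without Ctrl1, -1.06 without DR2 and -1.18 without Ctrl2), with summed signals of 4.51 and 6.20 in dark-reared samples and 6.41 and 4.97 in controls.

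Genes of the same secretory route were set beside the precursors, and 0 of them passed the test. Of 8 transcription factor genes listed for the magnocellular lineage, 4 were tested, all 4 higher in dark-reared means and 0 past the test. Their median of 0.15 was -0.02 after normexp correction. With no filter on dim probes the median of all 8 was -0.10. Otp, Sim1, Sim2 and Nhlh2 were not among the tested genes, and some of the tested ones also stand on other lists. The count therefore does not speak for that lineage alone. Arnt2, the partner of Sim1, lay at 0.15 and 0.25 in DR1 and DR2 and at -0.05 and 0.04 in Ctrl1 and Ctrl2. Pou3f2, which acts downstream of Sim1, differed by 0.10, and Nkx2-1, which is also on the hypothalamus list, by 0.02. Fezf2, which is also on the cortex list, differed by 1.37 (standard error 0.34, adjusted p = 1.00 in limma). Of the 13 tested genes that cut, pack or carry neuropeptides, 11 were lower, 2 higher and 0 past the test, with a median of -0.12. There were 7 lower and 6 higher without DR1 (median -0.04) and with normexp (-0.06), and 5 lower and 8 higher within the shared slide (0.08). The median was -0.07 without Ctrl1 and -0.20 without DR2. Resp18, a neuroendocrine vesicle protein gene, lay at 0.45, 2.80, 3.13 and 2.10 in DR1, DR2, Ctrl1 and Ctrl2, the same array being lowest as for Oxt. Chga and Scg2, which encode granins of the vesicle core, differed by -0.34 and -0.42, and Pcsk1, a prohormone convertase gene, by -0.42.

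Gal, Trh and Resp18 also stand on the hypothalamus list. Peptide genes that the same or nearby neurons make were listed together with Nos1, an enzyme gene. Of this list, 8 of 8 tested were lower on the dark-reared side, with 0 past the test and a median of -0.40. That count was 5 of 8 without DR1 or without DR2, 6 of 8 without either control, and 3 of 8 within the shared slide, where the median was 0.34. The median was -0.73 without DR2 and -0.95 without Ctrl2. Gal, the galanin gene, lay at -0.34, 1.89, 2.39 and 0.98 in DR1, DR2, Ctrl1 and Ctrl2. Trh, the precursor gene of thyrotropin-releasing hormone, lay at -3.79, -1.34, 0.30 and -1.998 in that order. Cartpt was lowest in DR1 as well, at -0.64, whereas Cck was lowest in Ctrl2, at 3.55 against 4.45 in DR1. Of the 8, 4 had their lowest value in DR1, beside 28.0% of all genes tested.

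Downstream of the receptors, 16 genes of G protein, phospholipase and arrestin signalling were tested, 11 higher, 5 lower and 0 past the test, with a median of 0.07. That median was -0.01 after normexp correction and -0.18 within the shared slide, and it was -0.06 without DR1 and -0.07 without Ctrl1. Grk5, a kinase that acts on activated receptors, was higher in both dark-reared samples, at -1.32 and -1.31 against -1.70 and -1.57 in controls, a difference of 0.32 that did not pass (adjusted p = 1.00 in limma). Plcb4, a phospholipase gene, was lowest in DR1 at -1.73 and highest in Ctrl1 at 0.11. Plcb3 and Prkcb each differed by 0.21 between the groups. Avpr2, the vasopressin receptor of the kidney, did not stand well above background on any of the 4.

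For Avpr1b, markers of the cells it is best known from were set beside it. Of 12 pituitary markers with a probe, 7 were tested, 6 lower and 1 higher in dark-reared means, with a median of -0.35 and 0 past the test. The median was -0.02 without DR1 (4 lower, 3 higher), -0.22 without DR2, -0.55 without Ctrl1 and -0.14 without Ctrl2. It was -0.65 with normexp, -0.18 with outlying local backgrounds replaced as well, and -0.13 over the 5 markers above background on all 4 arrays. Tbx19, a transcription factor of corticotrophs, and Pitx1 and Prl were not well above background on any array. Gh, the growth hormone gene, was well above background in both controls and in neither dark-reared sample, so that it was tested through the controls alone, at -7.17 and -5.24 against -5.01 and -4.34. The summed signal of the 7 was 1.68 and 1.69 in dark-reared samples and 1.32 and 1.99 in controls. Most of it came from the receptor gene Crhr1, at 1.21, 1.13, 0.63 and 1.37 in DR1, DR2, Ctrl1 and Ctrl2, so it says little on the hormone genes. The 6 tested CA2 markers had a median difference of -0.06 (0.19 within the shared slide and 0.21 without DR1), with 4 lower, 2 higher and 0 past the test. Their summed signal was 7.28 and 6.16 in dark-reared samples and 6.94 and 7.18 in controls. Most of that sum came from Pcp4, at 7.16, 5.84, 6.79 and 6.99 in DR1, DR2, Ctrl1 and Ctrl2. Rgs14, a signalling regulator of CA2, differed by -0.02, but it varied within groups, at 2.1, 1.1, 1.2 and 2.1 in DR1, DR2, Ctrl1 and Ctrl2. Cacng5 of the same list ran the other way, at -0.58, 1.10, 0.73 and -0.27. The part of pituitary or hippocampal content in the Avpr1b values was not tested.

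Markers of cells outside the neuronal lists gave their own pattern. Choroid plexus markers (10 tested) were low in Ctrl2, with a mean deviation of -1.95 there against 0.34 to 0.85 on the other arrays, and Ttr, the transthyretin gene, lay at -1.78 there against 1.56 to 2.63. Oxt and Avp were lowest in DR1 and next lowest in Ctrl2, at 2.36 and 1.17 there against 2.48 and 3.52 in DR2. The part of choroid plexus content in these values was not tested. Of 10 ependyma markers all 10 had higher dark-reared means (median 0.24, and -0.40 without Ctrl2), and 0 passed. All 10 were also higher within the shared slide (median 0.96). For choroid plexus 9 were higher and 1 lower (median 1.28, and -0.29 without Ctrl2), with 0 past the test. Within the shared slide all 10 choroid plexus markers were higher in DR2 (median 2.37). Of 7 tanycyte and pituicyte markers 4 were higher (median 0.07, and -0.09 within the shared slide and -0.06 to 0.48 with 1 array left out), and of 10 astrocyte and microglia markers 7 were higher (median 0.09, and -0.12 within the shared slide and -0.13 without Ctrl1), with 0 past the test.

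The genes whose deviations over the 4 arrays were closest to those of Oxt were Lhx5, Shisal2b, Foxb1, Calcr and Arhgap36, at Euclidean distances of 1.18, 1.85, 1.91, 2.09 and 2.29 log2 units. For Avp they were Lhx5, Shisal2b, Foxb1, Slc17a6 and Calcr, at 1.09, 1.87, 2.19, 2.20 and 2.36. Oxt and Avp were 1.59 apart, and Lhx5 was the 1 gene closer to either of them. Lhx5, a LIM homeobox transcription factor gene of the developing diencephalon, lay at -7.30 in DR1 and at -1.09, -1.004 and -2.51 in DR2, Ctrl1 and Ctrl2. Foxb1, a forkhead factor gene of the mammillary region, lay at -7.46, -3.29, -2.17 and -4.35. Slc17a6, the vesicular glutamate transporter gene of thalamic and hypothalamic neurons, lay at -1.02, 3.41, 3.88 and 1.63. Lhx5, Shisal2b, Foxb1 and Arhgap36 were not well above background in DR1, so their distances and ranks rest on values below that mark. Since the genes were chosen for likeness to Oxt and Avp, their low values in DR1 follow from the choice.

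**Figure D5:**
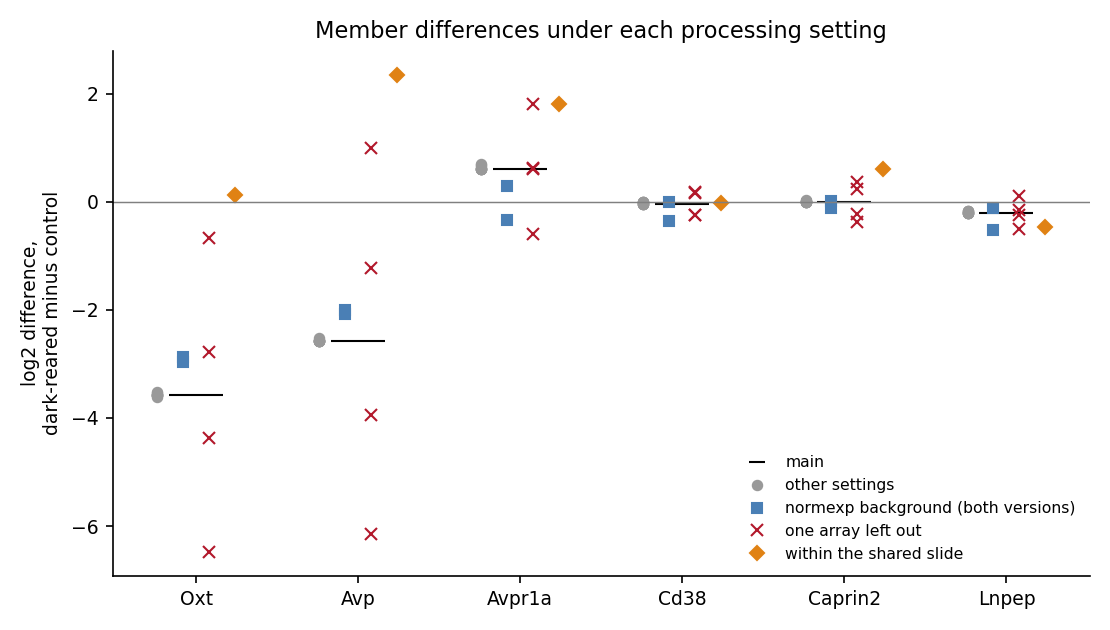
Log2 difference between dark-reared and control samples (vertical axis) of the 6 members measured on all 4 arrays under the main setting (bar) and each other setting (symbols). Leaving out 1 array moves Oxt between -6.48 and -0.68 and Avp between -6.15 and 0.99, while Lnpep stays between -0.51 and 0.10.

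In the plot of settings, scaling and background alternatives placed Oxt between -3.55 and -2.87 and Avp between -2.55 and -2.004, narrower ranges than those with 1 array left out. Avpr1b entered the main fit through the controls alone, and it drops out where all 4 arrays must be above background. The deposited log2 values gave differences of -3.60 for Oxt and -2.59 for Avp.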

How the data were processed

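Total RNA was labelled with Cy3 and hybridised to one-colour Agilent whole-genome arrays, 1 per sample. Per the file headers, Agilent Feature Extraction 10.7.3.1 produced the spot intensity values, and the processed signal is background-subtracted and detrended with no scaling between arrays. A table of log2 values, deposited by the authors and normalized by a method not given in the sources used here, served only as an alternative. The scanner flags were used as deposited.

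Spots called outliers were dropped and spots of a probe averaged. Log2 signals were taken relative to the 75th percentile over spots that are not controls. Of 41174 probes, 26918 got 1 symbol through RefSeq accessions (GRCm38.p6, for names and promoter sequences, while the arrays refer to mm9). A probe had to be well above background in each sample of a group or of both, which left 28439, and the brightest stood for a gene, giving 21423 genes. The comparison used lmFit and eBayes of limma 3.58.1 (R 4.3.3), with two-sided p-values adjusted by Benjamini-Hochberg across the 21423 genes and a threshold of 0.05. The fit was run on simulated data with dim probes left out and spreads capped at the median. That run does not cover spreads as wide as those of Oxt and Avp or signals as dim as Avpr1b. A bound raises a group with no array above background to each array's lowest signal well above background. Alternatives changed scaling, background, filter, probe choice and arrays.

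The named genes are the 8 members, up to 4 genes of each list by largest difference (marker lists also up to 3 by signal, not all printed), the 5 genes most like Oxt or Avp, and Xist and Ddx3y. The members and lists were chosen with earlier results of these data known.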

Additional observations from a re-analysis of the deposited data

How the results depend on the processing

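Direction and threshold: 0 genes and 0 members passed in limma under any setting with a test, including the replicate block (0 genes; unadjusted p under 0.05 for 272 genes against 268) and a crossed pairing of the numbers added after seeing the data (0 genes, 433 at an unadjusted p under 0.05). Over genes, the replicate 1 minus replicate 2 differences of the groups correlated at -0.16, so the shared numbers do not show pairing, and the block changed no call. The count of genes at least 2-fold apart without overlap was 255, and 152 with normexp background, 23 with normexp and outlying backgrounds replaced, 807 with no filter on dim probes, 77 when all 4 arrays had to be above background, and 524 to 882 with 1 array left out. The normexp correction moved the median of all genes from -0.01 to -0.12.

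Signs turned as follows. Within the shared slide, Oxt was 0.12 and Avp 2.35. With normexp background, Avpr1a was -0.33 and Caprin2 -0.12. Cd38 was 0.0038 with outlying backgrounds replaced and 0.0011 as the mean of its 2 probes. With each array left out, Oxt ran from -6.48 to -0.68, Avp from -6.15 to 0.99, Avpr1a from -0.59 to 1.80, Cd38 from -0.25 to 0.18, Caprin2 from -0.37 to 0.37 and Lnpep from -0.51 to 0.10. The cause was not tested. With 1 array left out, the lone sample is assumed to vary like the other group. Oxtr was not tested, and without the filter its dim values gave a fitted difference that has no reading as a fold. The within-slide values have no test. Avpr1b has values above background in controls alone, so its direction under other settings shows no stability. With normexp, which adds an offset of 50, Lnpep was -0.53 (standard error 0.36) and Cd38 -0.36 (0.30). Signal near background limits Oxtr, Avpr1b and the dimmer Cd38 probe.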
